A study of Mus musculus with 8 samples.

Results

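The PGC-1 coactivators, the nuclear receptors they bind and the nuclear factors that serve mitochondrial transcription were followed as a set of 10 genes, found by symbol among the 24341 genes of each library: Ppargc1a, Ppargc1b, Pprc1, Esrra, Esrrb, Esrrg, Ppara, Ppard, Nrf1 and Tfam. RNA came from the tibialis anterior, a shin muscle made mostly of fast fibres, of 8 chow-fed mice aged 12 weeks and described as male. The 4 knockout animals (Carm1 skm-/-) carried the HSAcre transgene (Tg/0) and floxed Carm1, and the 4 control animals (Carm1 skm+/+, titled wildtype) carried floxed Carm1 without the transgene (0/0). The floxed allele is therefore shared by both groups, and Cre is present in the knockouts alone. HSA is the human skeletal actin promoter, which drives Cre in muscle fibres, so the other cells of the muscle are not targeted.

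PGC-1 coactivators do not bind DNA themselves: they dock on transcription factors and recruit the machinery that activates genes of mitochondria and of fuel use. Their partners include the estrogen-related receptors (ERR), orphan nuclear receptors that activate genes of respiration, the peroxisome proliferator-activated receptors (PPAR), which respond to fatty acids, and NRF1, which binds promoters of respiratory chain genes and of Tfam. TFAM is imported into mitochondria, where it packages mitochondrial DNA and is needed to transcribe it. In skeletal muscle PGC-1alpha is known for its induction by exercise and for its higher level in oxidative than in glycolytic fibres. CARM1, also called PRMT4, is an arginine methyltransferase and a coactivator in its own right, and the comparison asks how these genes stand in muscle whose fibres were targeted to lose it.

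Levels are given as scaled FPKM, the authors' fragments counted per transcript length and per library size, divided by 1 factor per library (0.904 to 1.07). Gene positions are those of GENCODE M21 on GRCm38, the assembly of mm10. Read depth is not known from the files. Between 10775 and 11221 genes reached 1 FPKM in a library. Carm1 stood at 17.99, 12.7, 17.2 and 13.8 scaled FPKM in knockouts 1 to 4 and at 27.1, 37.4, 27.3 and 30.1 in controls 1 to 4. The groups did not overlap, with a log2 difference of -0.94. An exact permutation test over the 70 assignments, 2-sided, gave its smallest possible p, 0.0286. The limma adjusted p over all genes was 0.0466, and between 0.0638 and 0.154 with any 1 library left out. The labels do not name the deleted exons, and whether the Carm1 row includes them was not tested.

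In 3 libraries the RNA went against the label male. Knockout 2, knockout 4 and control 1 held Xist, the RNA of the inactive X chromosome, at 19.6 to 22.9 FPKM, against at most 0.0662 FPKM in the other 5. Eif2s3y, a Y-linked gene, was at or under 0.112 FPKM in those 3 and between 42.3 and 58.1 FPKM in the other 5. The type IIa myosin gene Myh2 lay between 764 and 1540 FPKM in the 3 libraries with Xist and between 122 and 167 FPKM in the 5 without it. Because Xist falls in 2 knockouts and 1 control, the difference of each of the 10 genes is also given with Xist as a covariate and in the 5 libraries without it. The part of sex or of fibre type in these differences was not tested.

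None of the 10 genes passed the test between genotypes. In Ppara, Esrrb, Esrrg, Ppard and Tfam each library with Xist was above each library without it, in either genotype. All 10 genes reached the level needed for testing. With limma 0 of the 10 passed at an adjusted p under 0.05, where 40 of 11096 genes did (0.36%), and the adjusted p of the 10 lay between 0.562 and 0.901. At an unadjusted p under 0.05 the count was also 0, where 13.1% of all genes passed. With Xist as a covariate 0 of the 10 passed, where 2.01% of genes did; in the 5 libraries without Xist 0 passed, where 0.00936% did; and without knockouts 2 and 4 together 0 passed, where 0.111% did. The log2 differences, knockout minus control, were above 0 for 8 genes and below 0 for 2, with a median of 0.11 against -0.002 over all genes. With Xist as a covariate 5 were above 0 and 5 below, with a median of 0.02. In the 5 libraries without Xist 4 were above 0 and 6 below (median -0.03), and without knockouts 2 and 4 likewise 4 and 6 (median -0.16), so the direction of the median turned with the libraries used. In the fit of all 8 libraries the 95% interval of the fold stayed within a 2-fold change in either direction for 9 of the 10, and Ppara was the exception. This fold is on the scale of log2(scaled FPKM + 1), which understates change in low genes. In the 5 libraries without Xist the interval of Ppargc1a reached down to 0.386. Without knockouts 2 and 4 together those of Ppargc1a and Ppara reached down to 0.422 and 0.401.

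**Figure D1:**
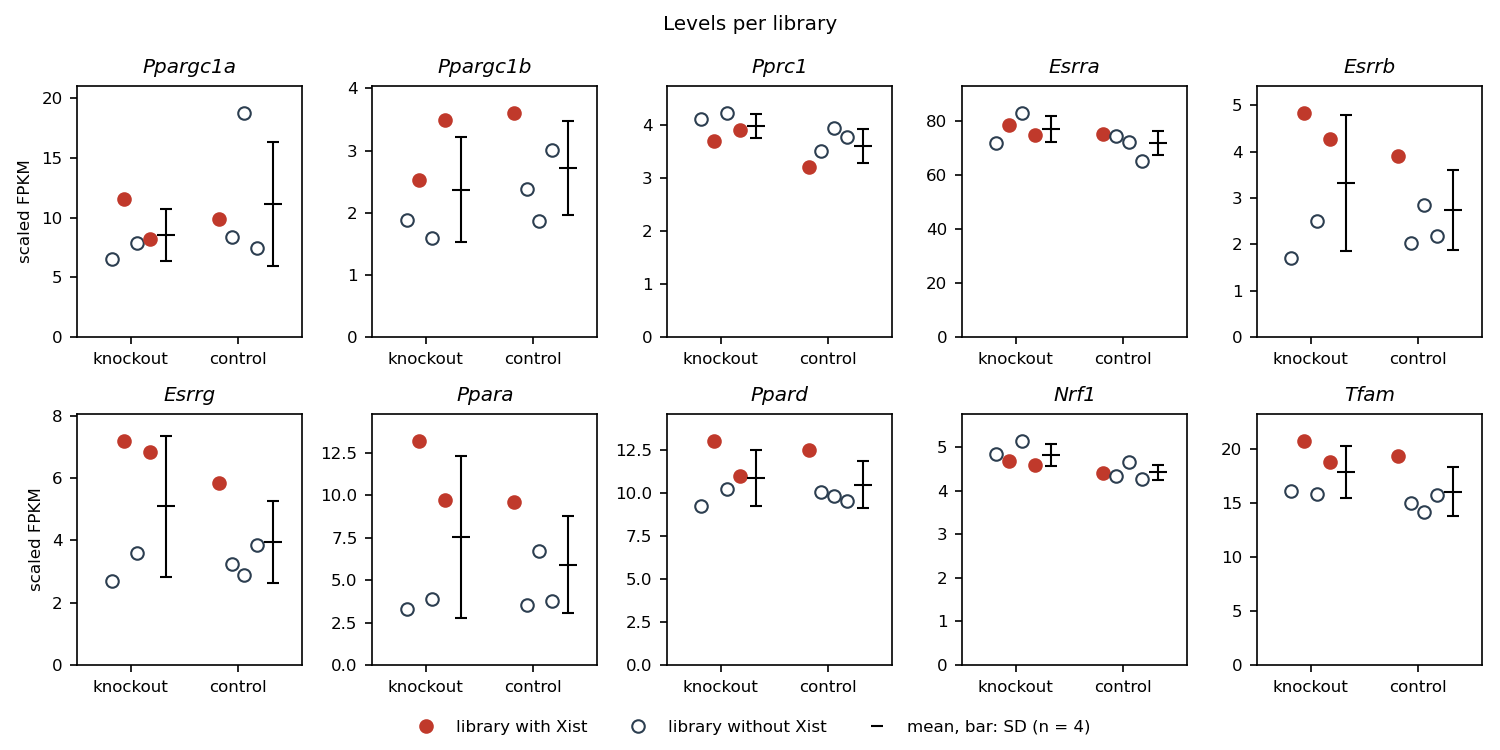
Scaled FPKM of the 10 genes in each library, 4 knockouts left of 4 controls in each panel, with the group mean and SD beside the points; filled points are the libraries with Xist. Filled points lie above all open points for Esrrb, Esrrg, Ppara, Ppard and Tfam, and the 2 groups overlap in all 10 panels.

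Ppargc1a, which encodes PGC-1alpha, the founding member of the coactivator family, averaged 8.56 ± 2.15 scaled FPKM in knockouts and 11.1 ± 5.19 in controls (mean ± SD, n = 4 each). Single libraries stood at 6.54, 11.6, 7.90 and 8.20 in knockouts 1 to 4 and at 9.88, 8.41, 18.8 and 7.43 in controls 1 to 4. Control 3 was far above the other 7, which lay between 6.54 and 11.6 with the groups interleaved. For Ppargc1a the log2 difference was -0.28 (SE 0.27, 95% interval -0.89 to 0.32, limma adjusted p = 0.708). Without control 3 it was -0.02. It was -0.33 with Xist as a covariate and -0.50 in the 5 libraries without Xist, where control 3 is 1 of 3 controls (adjusted p 0.561 and 0.599). Ppargc1a lies on the minus strand of chr5:51454250-51567726. The row of the files ends at 51553921 (mm10), 13805 bases short of the end of the gene in GENCODE M21, which on this minus-strand gene is the side of the first exons. Exons upstream of that point are therefore not part of the row, while exons that such a transcript shares downstream are.

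Ppargc1b, the gene of PGC-1beta, a close relative that also drives respiratory genes, lies on chromosome 18 and averaged 2.37 ± 0.844 scaled FPKM in knockouts and 2.72 ± 0.755 in controls (n = 4 each). The values were 1.88, 2.53, 1.59 and 3.49 in knockouts 1 to 4 and 3.61, 2.39, 1.86 and 3.01 in controls 1 to 4. Control 1 and knockout 4 were the highest, both with Xist, while control 4, without it, exceeded knockout 2, with it. Between genotypes the log2 difference was -0.15 (SE 0.20, 95% interval -0.60 to 0.30, limma adjusted p = 0.804). With Xist as a covariate it was -0.28 (interval -0.57 to 0.02, adjusted p = 0.299), and in the 5 libraries without Xist -0.31 (adjusted p = 0.484). Ppargc1a exceeded Ppargc1b between 2.35 and 4.58 times in the 3 libraries with Xist and between 2.47 and 10.1 times in the 5 without. The highest ratio was that of control 3.

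Pprc1, whose product PRC is a serum-responsive member of the family, was steady. The gene lies on the plus strand of chr19:46044886-46072915, of which the row of the files leaves out the first 11653 bases. It stood at 4.11, 3.71, 4.23 and 3.91 scaled FPKM in knockouts 1 to 4 and at 3.21, 3.52, 3.95 and 3.78 in controls 1 to 4. Knockout 2 lay below controls 3 and 4, so the groups overlapped. The genotypes differed by a log2 value of 0.11 (SE 0.08, 95% interval -0.06 to 0.29, limma adjusted p = 0.579), 0.15 with Xist as a covariate (adjusted p = 0.269) and 0.12 in the 5 libraries without it (adjusted p = 0.632). On the FPKM as deposited the 2 groups of Pprc1 did not overlap, and the same held for Nrf1 among the 10 genes; this was true of 9.94% of all genes tested. After scaling 0 of the 10 genes had groups that did not overlap, against 8.31% of all genes tested. The PGC-1 family was led by Ppargc1a, which made up 56.8% ± 5.97 of the summed FPKM of the 3 genes in knockouts and 61.6% ± 10.3 in controls (SD, n = 4 each).

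Esrra, the gene of ERRalpha and a main partner of PGC-1alpha at respiratory genes, was the most abundant of the 10 (chr19:6910977-6921813, minus strand). It stood at 71.6, 78.5, 82.8 and 74.7 scaled FPKM in knockouts 1 to 4 and at 75.2, 74.2, 72.1 and 65.2 in controls 1 to 4. Knockout 1 was below 3 of the controls, and the highest library was only 1.27 times the lowest. The log2 difference was 0.10 (SE 0.08, 95% interval -0.08 to 0.28, limma adjusted p = 0.647), 0.09 with Xist as a covariate and 0.13 in the 5 libraries without it. The files give Esrra 1 interval with Trmt112, a methyltransferase cofactor, on chromosome 19 (6909698 to 6921808, mm10), so their shared reads were split by estimation. Trmt112 itself lay between 30.9 and 37.7 scaled FPKM in knockouts and between 30.6 and 37.9 in controls.

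Esrrb and Esrrg, the genes of ERRbeta and ERRgamma, were far lower than Esrra and varied far more. They lie on the plus strand, Esrrb at chr12:86361117-86521628 and Esrrg at chr1:187608791-188214885. Esrrb stood at 1.71, 4.84, 2.52 and 4.27 scaled FPKM in knockouts 1 to 4 and at 3.91, 2.02, 2.86 and 2.17 in controls 1 to 4. The 3 highest values belong to the 3 libraries with Xist. The log2 difference of Esrrb was 0.17 (SE 0.26, 95% interval -0.41 to 0.76, limma adjusted p = 0.827), against -0.01 with Xist as a covariate (SE 0.13, adjusted p = 0.977) and -0.11 in the 5 libraries without Xist.

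Esrrg, the receptor gene known for its link to oxidative fibres and their blood supply, stood at 2.71, 7.20, 3.60 and 6.85 scaled FPKM in knockouts 1 to 4 and at 5.85, 3.23, 2.88 and 3.85 in controls 1 to 4. Knockouts 2 and 4 and control 1 were again highest, and within the other 5 libraries the groups interleaved. The log2 difference was 0.25 (SE 0.28, 95% interval -0.39 to 0.90, limma adjusted p = 0.76), against 0.04 with Xist as a covariate (SE 0.11, 95% interval -0.21 to 0.30, adjusted p = 0.866) and -0.06 in the 5 libraries without Xist. Of the summed FPKM of the 3 ERR genes, Esrra made up 90.3% ± 3.94 in knockouts and 91.5% ± 2.14 in controls (SD, n = 4 each). Its share lay between 86.7% and 88.5% in the libraries with Xist and between 91.6% and 94.2% in those without.

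Ppara, the fatty-acid sensor that activates genes of fat oxidation, varied most of the 10 between libraries, by 4.02 times. Its gene lies on the plus strand of chr15:85734983-85802819. It stood at 3.29, 13.2, 3.86 and 9.75 scaled FPKM in knockouts 1 to 4 and at 9.60, 3.53, 6.75 and 3.76 in controls 1 to 4. The 3 libraries with Xist were the highest and control 3 was the next. The log2 difference was 0.21 (SE 0.43, 95% interval -0.76 to 1.19, limma adjusted p = 0.87). It was -0.09 with Xist as a covariate (SE 0.20, adjusted p = 0.838) and -0.27 in the 5 libraries without Xist (adjusted p = 0.676). Without knockouts 2 and 4 together it was -0.51 (adjusted p = 0.569), so its sign depended on those libraries.

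Ppard, the PPAR gene known for promoting oxidative metabolism in muscle (chr17:28232700-28301474, plus strand), stood at 9.23, 13.0, 10.2 and 10.96 scaled FPKM in knockouts 1 to 4 and at 12.5, 10.02, 9.79 and 9.52 in controls 1 to 4. Knockout 2, control 1 and knockout 4 were the highest, and the groups overlapped. Its log2 difference was 0.05 (SE 0.12, 95% interval -0.23 to 0.32, limma adjusted p = 0.901), -0.03 with Xist as a covariate and -0.01 in the 5 libraries without Xist. The libraries with Xist averaged 1.25 times those without, a smaller step than the 2.56 times of Ppara. Ppara therefore made up between 43.4% and 50.4% of the 2 PPAR genes in libraries with Xist and between 26.1% and 40.8% in those without. The interval the files give for Ppard also holds Def6, Scube3, Zfp523 and 1810013A23Rik, of which Zfp523 reached at most 9.65 scaled FPKM in knockouts and 8.70 in controls.

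Nrf1, the gene of nuclear respiratory factor 1, was the steadiest of the 10, with 1.21 times between the lowest and the highest library (chr6:30047988-30153458, plus strand). It stood at 4.84, 4.67, 5.15 and 4.59 scaled FPKM in knockouts 1 to 4 and at 4.398, 4.34, 4.65 and 4.27 in controls 1 to 4. Control 3 exceeded knockout 4, and the other controls lay below all knockouts. Nrf1 had a log2 difference of 0.10 (SE 0.07, 95% interval -0.05 to 0.25, limma adjusted p = 0.562), 0.11 with Xist as a covariate (adjusted p = 0.367) and 0.15 in the 5 libraries without Xist (adjusted p = 0.568).

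Tfam, the mitochondrial transcription and packaging factor, was second in level after Esrra (chr10:71225464-71238280, minus strand). It stood at 16.1, 20.8, 15.8 and 18.8 scaled FPKM in knockouts 1 to 4 and at 19.3, 15.0, 14.1 and 15.7 in controls 1 to 4. Knockout 2, control 1 and knockout 4 were the highest, and the 5 other libraries lay between 14.1 and 16.1. The log2 difference was 0.15 (SE 0.12, 95% interval -0.13 to 0.42, limma adjusted p = 0.661), 0.07 with Xist as a covariate and 0.09 in the 5 libraries without Xist.

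**Figure D2:**
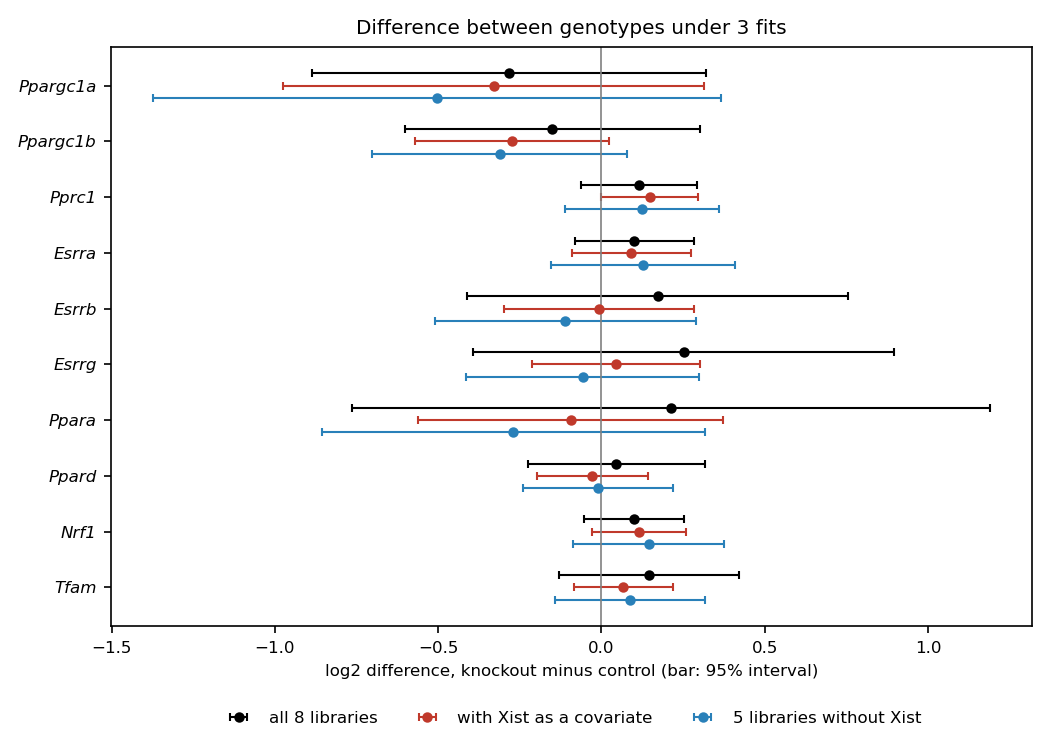
Log2 difference, knockout minus control, of each of the 10 genes with its 95% interval from limma, in all 8 libraries, with Xist as a covariate and in the 5 libraries without Xist. All intervals from the 8 libraries without a covariate include 0, and those of Ppara, Esrrg and Esrrb are narrower with the covariate.

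In mean level over the 8 libraries, a scale per transcript length, the order was Esrra (74.3), Tfam (16.9), Ppard (10.7), Ppargc1a (9.84), Ppara (6.72), Nrf1 (4.61), Esrrg (4.52), Pprc1 (3.80), Esrrb (3.04) and Ppargc1b (2.55 scaled FPKM). The range of Esrra did not meet that of Tfam, nor the range of Tfam that of Ppard. From Ppard downwards the ranges of all neighbours in the order overlapped, so their places are not set apart by the spread between libraries. In bulk muscle, fewer cells of a type and less RNA per cell cannot be told apart.

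In 5 of the 10 genes all 3 libraries with Xist lay above all 5 without it, which held for 11.4% of the genes tested; the 10 genes had been chosen with these data known. The ratio of the mean with Xist to the mean without it was 2.56 for Ppara, 2.04 for Esrrg, 1.92 for Esrrb, 1.28 for Tfam and 1.25 for Ppard. Ppargc1b had a ratio of 1.496 with overlapping values, while Ppargc1a (1.01), Esrra (1.04), Nrf1 (0.979) and Pprc1 (0.921) showed no such step. Myh2 had a ratio of 8.33 and Myh7, the slow myosin gene, 4.27, at levels of at most 4.75 scaled FPKM. The summed level of 10 slow and type IIa fibre markers, among which Myh2 is the largest, was 300 to 1800 scaled FPKM in knockouts and 275 to 1380 in controls; it was 1380 to 1800 in libraries with Xist and 275 to 352 without. Of the 9 tested 8 were higher in knockouts and 1 lower, none passing, with a median log2 difference of 0.65. This median was 0.40 with Xist as a covariate and 0.54 in the 5 libraries without Xist. Without knockouts 2 and 4 together it was 0.13, with 6 of the 9 higher and 3 lower. Tnnt1, the slow troponin T gene, stood at 56.4, 23.3, 17.0 and 21.2 scaled FPKM in knockouts 1 to 4 and at 16.1, 9.30, 14.4 and 6.90 in controls 1 to 4, without overlap (1.18, limma adjusted p = 0.23). None of these markers was at 0 in all libraries. The part of fibre type in the levels of the receptor genes was not tested.

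**Figure D3:**
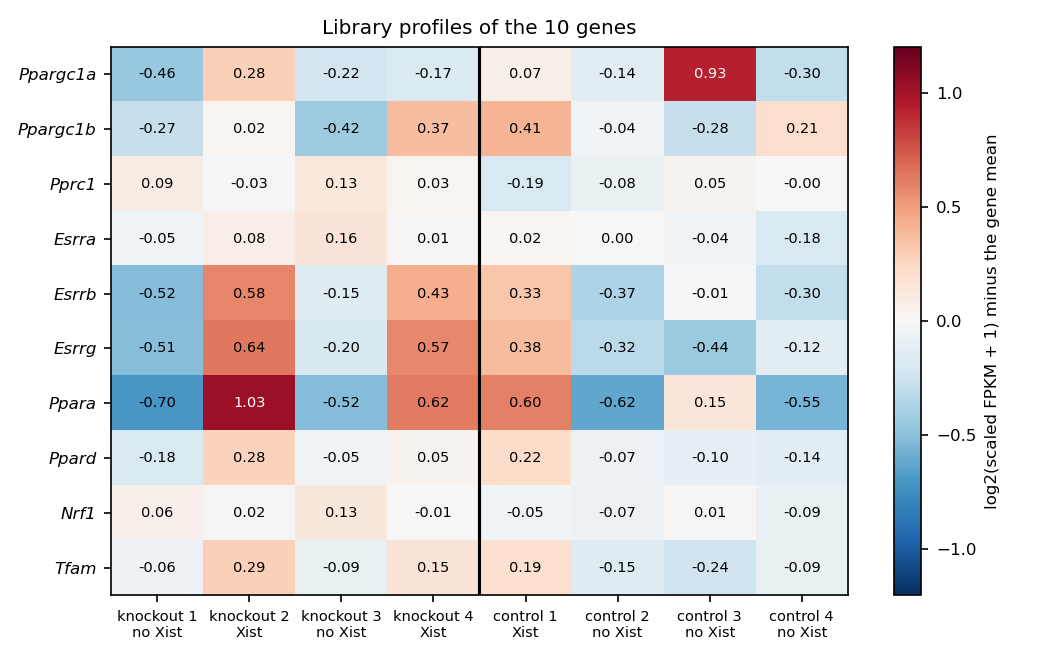
Profile of each of the 10 genes over the 8 libraries, as log2(scaled FPKM + 1) minus the mean of the gene, with knockouts left of the line and controls right of it. Ppara, Esrrb, Esrrg, Ppard and Tfam are above their means in knockout 2, knockout 4 and control 1, and Ppargc1a is highest in control 3.

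The promoters of the 5 genes that shared this library pattern are shown so that their starts can be read side by side. RefSeq holds 2 entries for Esrrb and 4 for Esrrg, of which the one at the start of the interval in the files is printed, and 1 entry each for Ppara, Ppard and Tfam. Sequences are from RefSeq (GRCm38.p6, the assembly of mm10), 250 bases before the start and 50 from it on, on the strand of the gene. The windows are chr15:85735526-85735825 (Ppara, plus strand; this start lies 212 bases inside the interval in the files), chr17:28232504-28232803 (Ppard, plus strand; inside the interval that the files share among several genes), chr12:86360867-86361166 (Esrrb, plus strand), chr1:187608756-187609055 (Esrrg, plus strand) and chr10:71237995-71238294 (Tfam, minus strand). Capitals mark matches to 6 motifs on either strand: the ERR half-site AAGGTCA; the NRF1 motif GCGCANGCG; the CREB motif TGACGTCA; the GABP motif CCGGAAG; the Sp1 motif GGGCGG; and the MEF2 core CTANNNNTA.
Ppara: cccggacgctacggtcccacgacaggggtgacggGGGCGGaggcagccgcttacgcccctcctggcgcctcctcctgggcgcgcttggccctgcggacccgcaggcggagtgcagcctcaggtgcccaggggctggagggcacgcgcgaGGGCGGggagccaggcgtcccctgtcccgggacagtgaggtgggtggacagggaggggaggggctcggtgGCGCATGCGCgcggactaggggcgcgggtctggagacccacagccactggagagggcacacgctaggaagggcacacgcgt
Ppard: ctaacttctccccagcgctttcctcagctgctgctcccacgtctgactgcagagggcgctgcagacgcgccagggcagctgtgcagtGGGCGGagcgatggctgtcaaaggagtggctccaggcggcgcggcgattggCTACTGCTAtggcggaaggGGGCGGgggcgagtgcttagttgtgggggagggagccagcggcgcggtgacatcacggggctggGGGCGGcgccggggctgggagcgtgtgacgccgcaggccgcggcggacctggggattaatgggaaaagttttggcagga
Esrrb: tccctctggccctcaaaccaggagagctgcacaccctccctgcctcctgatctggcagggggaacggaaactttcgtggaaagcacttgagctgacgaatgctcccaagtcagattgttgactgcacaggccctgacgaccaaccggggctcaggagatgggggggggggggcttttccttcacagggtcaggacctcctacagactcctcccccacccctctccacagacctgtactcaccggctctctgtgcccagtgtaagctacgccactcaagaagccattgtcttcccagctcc
Esrrg: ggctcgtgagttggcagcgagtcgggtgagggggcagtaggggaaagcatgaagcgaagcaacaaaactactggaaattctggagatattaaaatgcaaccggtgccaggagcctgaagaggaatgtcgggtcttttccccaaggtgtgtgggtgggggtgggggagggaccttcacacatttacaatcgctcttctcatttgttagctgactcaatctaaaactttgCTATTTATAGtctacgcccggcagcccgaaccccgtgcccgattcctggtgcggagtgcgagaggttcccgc
Tfam: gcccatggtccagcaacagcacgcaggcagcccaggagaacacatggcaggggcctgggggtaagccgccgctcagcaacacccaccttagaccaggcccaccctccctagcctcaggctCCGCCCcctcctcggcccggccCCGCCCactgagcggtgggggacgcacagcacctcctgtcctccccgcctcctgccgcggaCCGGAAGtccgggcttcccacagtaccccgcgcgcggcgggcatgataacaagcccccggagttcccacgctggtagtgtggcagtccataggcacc
In the Ppara window the NRF1 motif matched on both strands of 1 site of 10 bases that begins 31 bases before the start, and 6.25% of the 32851 promoter windows in the table held this motif. The Tfam window had 1 GABP match beginning 47 bases before the start (8.86% of windows) and, like Ppara, 2 Sp1 matches (35.7% of windows). The Ppard window held 3 Sp1 matches and 1 MEF2 core that begins 112 bases before the start. The Esrrg window held 1 MEF2 match, read on both strands, beginning 22 bases before the start and with only A and T in the middle. The loose pattern matched 21.0% of windows. The printed Esrrb window had no match to any of the 6. The other Esrrb entry held a match to the MEF2 pattern beginning 7 bases before its start, again not all A and T in the middle. Of the 3 other Esrrg entries 1 held 2 Sp1 matches, 1 held 1 and 1 had no match. No window of the 9 genes with an entry used here matched the ERR half-site (4.72% of windows) or the CREB motif (1.79%). No match in the 5 printed windows overlapped that of another motif. These are matches of letters and not measured binding sites.

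Among themselves, the 10 genes fell into profiles of unequal amplitude. The measure used was the root-mean-square difference between 2 profiles of log2(scaled FPKM + 1) over the 8 libraries, each centred on its own mean. Pprc1 and Nrf1, which hardly varied, were nearest to each other at 0.06. Ppard and Tfam differed by 0.08, and Esrrb and Esrrg by 0.17, against 0.38 for Esrrb and 0.43 for Esrrg around their own means. Ppargc1a differed from Ppargc1b by 0.53, more than it varied around its own mean (0.41).

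By the same measure over all genes tested, the nearest profiles to Ppara were those of Smtnl1, a smoothelin-like muscle gene (0.18), and Slc25a34, a mitochondrial carrier gene (0.20). Nearest to Esrrg were Fitm2, a gene of lipid droplet formation (0.10), and Nedd1 (0.11); nearest to Esrrb were Wfs1 (0.10) and Adck3, a gene of coenzyme Q synthesis (0.11). Those nearest to Ppargc1a were Map2k3, a kinase gene upstream of p38 (0.20), and Mafk (0.21), against 0.41 for Ppargc1a around its own mean. Ppargc1b was nearest to Smad6 (0.06) and Rgmb (0.08), Ppard to Vps13b (0.03) and Tpr (0.04), and Tfam to Fam135a (0.03) and Hnrnpll (0.03). By this measure a profile near that of a steady gene is itself steady. Nearest to Esrra were Uqcc1 (0.04) and Dhodh (0.05), to Pprc1 Ebna1bp2 (0.04) and Hoxc11 (0.04), and to Nrf1 Apip (0.03) and Wdr55 (0.03).

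The genes around the 10 were described by 6 lists holding 117 tested genes between them. Of these, 0 passed the test between genotypes over all genes, where 0.36% of all genes tested did. Over all 11096 genes 5492 were higher and 5604 lower in knockouts, with a median log2 difference of -0.002. In the list of mitochondrial DNA transcription and replication 8 of 14 were higher and 6 lower, with a median of 0.02. Tfb1m, a methyltransferase of the mitochondrial ribosomal RNA, averaged 10.3 ± 1.75 scaled FPKM in knockouts and 7.70 ± 1.30 in controls (n = 4 each; log2 difference 0.37, limma adjusted p = 0.313). Slirp, which stabilises mitochondrial messenger RNA, averaged 270 ± 14.6 in knockouts and 315 ± 44.1 in controls, without overlap (-0.21, limma adjusted p = 0.441). Groups did not overlap in 8.31% of all genes tested. The mitochondrial RNA polymerase gene Polrmt stood at 9.41 scaled FPKM in both groups, with a log2 difference of 0.01.

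Of 20 partners and corepressors 13 were higher and 7 lower, with a median log2 difference of 0.08. Rxrg encodes a retinoid X receptor, the class that pairs with PPARs. It stood at 24.5, 13.0, 25.8 and 15.8 scaled FPKM in knockouts 1 to 4 and at 25.7, 39.9, 36.9 and 41.8 in controls 1 to 4. Only control 1 fell within the range of the knockouts. Its log2 difference was -0.86 (SE 0.23, limma adjusted p = 0.173). With Xist as a covariate it passed (-0.69, limma adjusted p = 0.0166). It was the 1 of the 117 tested genes of the 6 lists to do so, where 2.01% of all genes tested passed. In the 5 libraries without Xist it did not pass (-0.63, adjusted p = 0.163). Sirt1, the deacetylase gene that acts on PGC-1alpha, stood at 3.70, 4.35, 3.47 and 4.16 scaled FPKM in knockouts 1 to 4 and at 3.07, 2.36, 2.73 and 3.22 in controls 1 to 4, without overlap (0.36, adjusted p = 0.177).

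Of 21 genes of signals known to act on Ppargc1a 8 were higher and 13 lower, with a median of -0.04, or 0.04 without scaling. Hdac4, a class IIa deacetylase gene that represses MEF2 factors, averaged 5.20 ± 1.02 scaled FPKM in knockouts and 3.46 ± 0.582 in controls, without overlap (n = 4 each; log2 difference 0.47, limma adjusted p = 0.189). Mapk14, the p38alpha kinase gene, averaged 36.3 ± 4.82 in knockouts and 44.9 ± 7.19 in controls (-0.30, adjusted p = 0.404). Prkaa2, the muscle AMPK catalytic subunit, differed by -0.20 (adjusted p = 0.743).

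The 3 lists of target genes had more members lower than higher in the knockout, by an amount that depended on the normalization, and none of their members passed. In the PPAR list of lipid use 16 of 22 were lower and 6 higher, with a median of -0.15; in the ERR list 22 of 25 were lower and 3 higher, with a median of -0.19; in the NRF1 list 16 of 22 were lower and 6 higher, with a median of -0.15. With Xist as a covariate the medians were -0.16, -0.24 and -0.16, and in the 5 libraries without Xist they were -0.07, -0.15 and -0.14. With quantile normalization all 3 medians were -0.06, with cyclic loess normalization they were -0.07, -0.03 and -0.04, and without scaling they were -0.06, -0.10 and -0.06, where the median of all genes was 0.07. Many of these genes encode respiratory chain and tricarboxylic acid cycle proteins and several stand in more than 1 list, so the lists are not independent of each other. Ucp2, an uncoupling protein gene, averaged 13.1 ± 2.07 scaled FPKM in knockouts and 19.3 ± 3.06 in controls (n = 4 each; log2 difference -0.52, limma adjusted p = 0.176), and Cpt1b, the muscle gene for fatty acid entry into mitochondria, 147 ± 12.7 in knockouts and 173 ± 10.1 in controls (-0.23, adjusted p = 0.308).

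Among ERR targets Ndufb5, a complex I subunit gene, averaged 733 ± 54.9 scaled FPKM in knockouts and 967 ± 177 in controls, without overlap (n = 4 each, log2 difference -0.38, limma adjusted p = 0.28). Fh1, fumarate hydratase, averaged 277 ± 24.0 in knockouts and 332 ± 21.8 in controls (-0.26, adjusted p = 0.264). Among NRF1 targets Atp5g1, a subunit gene of ATP synthase, averaged 787 ± 74.3 in knockouts and 1043 ± 119 in controls (-0.40, adjusted p = 0.183), and Cox6a1, of complex IV, 94.2 ± 10.7 in knockouts and 114 ± 10.2 in controls (-0.27, adjusted p = 0.312). Perm1, a muscle-specific regulator that is induced by PGC-1 and ERR factors, differed by -0.06 (adjusted p = 0.871).

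**Figure D4:**
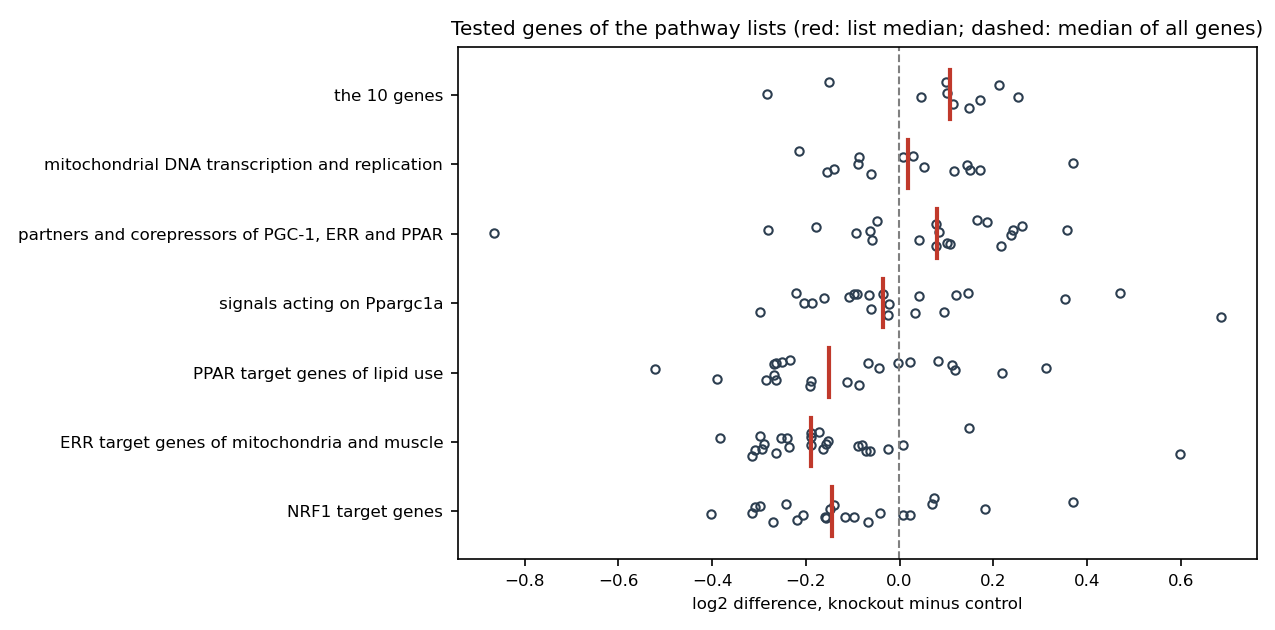
Log2 difference, knockout minus control, of the 10 genes and of each tested gene of the 6 pathway lists (circles), with the median of each list (red) and the median of all genes tested (dashed line). The medians of the 3 target lists lie at -0.19 to -0.15, and those of the other lists and of the 10 genes between -0.04 and 0.11; with quantile or cyclic loess normalization the target lists lie at -0.07 to -0.03.

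Of 10 markers of muscle fibres, most of them of fast fibres, 7 were tested, of which 6 were lower in knockouts and 1 higher, none passing. Their median log2 difference was -0.28, against -0.22 with Xist as a covariate and -0.09 in the 5 libraries without Xist. Without knockouts 2 and 4 together it turned to 0.06, with 4 of the 7 higher and 3 lower. Mylpf, the fast regulatory myosin light chain gene, lay between 14630 and 19990 scaled FPKM in knockouts and between 23250 and 35720 in controls, without overlap (-0.59, limma adjusted p = 0.203). Fast-fibre Actn3 lay between 1455 and 2656 scaled FPKM in knockouts and between 1778 and 2761 in controls, while Acta1, Ckm and Tnnt3 were listed at 0 in some libraries with a status other than OK and were not tested.

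Markers of other cells in the muscle were present in every library. The summed level of 10 fibro-adipogenic markers was 401 to 736 scaled FPKM in knockouts and 504 to 942 in controls, with 10 of 10 lower (median log2 difference -0.33; no marker in these lists passed). That of 10 endothelial markers was 288 to 388 in knockouts and 345 to 391 in controls, with 10 of 10 lower (median -0.16). Smooth muscle markers, 7 of 7 lower, had a median of -0.33. Macrophage markers summed to 34.1 to 63.6 scaled FPKM in knockouts and 40.2 to 70.3 in controls (6 of 7 higher), satellite cell markers to 24.5 to 36.9 in knockouts and 23.6 to 28.8 in controls (2 of 3 tested higher), blood genes to 375 to 1005 in knockouts and 349 to 750 in controls (3 of 4 tested higher), and neural and Schwann cell markers to 86.1 to 105 in knockouts and 83.2 to 130 in controls (6 of 7 lower). Adipocyte markers summed to 679 to 1038 scaled FPKM in knockouts and 908 to 1134 in controls, nearly all of it Fabp4, which endothelium also expresses (4 of 5 tested lower). Adiponectin (Adipoq) was at most 3.29 in knockouts and 1.74 in controls. In the 5 libraries without Xist the macrophage and blood counts turned, with 1 of 6 and 1 of 4 tested higher, and adipocyte markers stood at 2 of 4 lower. There 10 of 10 fibro-adipogenic, 7 of 7 smooth muscle, 8 of 10 endothelial and 5 of 7 neural and Schwann cell markers were lower, and 2 of 3 satellite cell markers higher. The part of fibres and of these other cells in the levels of the 10 genes was not tested.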

How the data were processed

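Trizol RNA was made into TruSeq RNA libraries, per the labels' protocols. The authors used STAR and Cufflinks with mm10, per the submitters' processing notes; versions and annotation are not given in the sources used here. FPKM were deposited by the authors, in a Cufflinks table for each library per the file headers. Without counts no count model could be run. Reads shared by overlapping genes are split by estimation, and no strand setting is stated, so such genes are uncertain. A status other than OK removed 23 genes.

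Each library's FPKM were scaled by a median-of-ratios factor and analysed as log2(scaled FPKM + 1), a scale that understates change in low genes. Testing covered the 11096 genes that reached 1 scaled FPKM in 4 or more libraries. It used limma 3.58.1 in R 4.3.3 (trend on the mean), Benjamini-Hochberg adjustment over all of them and a threshold of 0.05. The fit was tested on simulated data with independent noise and no Xist pattern. There, averaged over 200 changed genes of any spread, it recovered 83.8% of log2 changes of 1 and 42.6% of those of 0.5, with 5.52% of calls false. Changes of 0.5 or less would thus often be missed. These averages do not hold for variable genes. In the real data Carm1, at -0.94 with an SE of 0.14, only just passed (limma adjusted p = 0.0466). The SE of Ppara was 0.43, that of Esrrg 0.28, that of Ppargc1a 0.27 and that of Esrrb 0.26, so log2 changes of 1 in these genes could be missed too. Lists were described by counts and medians. The labels call the animals biological replicates. Tables and figures were made in Python 3.11.15.

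The members, lists, covariate and alternatives were chosen with earlier results of these data known. Named were the 10 members, Carm1, the 2 genes with the smallest p in each pathway list (none having passed) and the 2 nearest profiles per member, with clone-type, microRNA and small nucleolar RNA names skipped. Polrmt, Prkaa2, Perm1, Tnnt1, Mylpf, Actn3, Nnt, Pdk4 and Foxo1 were added after their values were seen. Alternatives were another pseudocount (0.1), the low-value filter dropped or replaced by a mean of 5 scaled FPKM, no scaling, quantile and cyclic loess normalization, robust eBayes, array weights, the replicate block, a term for Xist, the libraries lacking Xist, knockouts 2 and 4 removed together, and each library removed in turn.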

Additional observations from a re-analysis of the deposited data

Results flagged for a closer look

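Ppard in control 1, at 12.5 scaled FPKM, stood apart from the other 3 controls, which lay between 9.52 and 10.02 (Dixon ratio 0.834). Control 1 is the control library with Xist. Of the 20 groups examined this was the 1 flagged, and chance flags about 1 in 20.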

How the results depend on the processing

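None of the 10 genes passed under any of the 20 alternatives. Ppargc1a (-0.50 to -0.02) and Ppargc1b (-0.42 to -0.02) kept a negative log2 difference in all alternatives that gave a value, and Pprc1 (0.07 to 0.18), Esrra (0.06 to 0.19), Nrf1 (0.07 to 0.17) and Tfam (0.00 to 0.23) none below 0. The sign of the others turned: with Xist as a covariate Esrrb, Ppara and Ppard stood at -0.01, -0.09 and -0.03; in the 5 libraries without Xist Esrrb, Esrrg, Ppara and Ppard stood at -0.11, -0.06, -0.27 and -0.01; without knockouts 2 and 4 together they stood at -0.25, -0.23, -0.51 and -0.09; and with 1 library left out Ppara lay between -0.09 and 0.48 and Ppard between -0.04 and 0.13, both below 0 without knockout 2 alone. The cause was not tested. Without scaling the unadjusted p was under 0.05 for Esrra and Nrf1, the 2 of the 10 for which it was. The count of 40 genes over all features became 8 without a filter, 15 at a mean of at least 5 scaled FPKM, 0 with the replicate block (1314 at an unadjusted p under 0.05 in limma), 103 with array weights, 223 with Xist as a covariate, 1 in the 5 libraries without Xist, 12 without knockouts 2 and 4, and 2 to 27 with 1 library left out. Carm1 kept its direction in all 20 and lost its call at -0.94 without a filter (adjusted p = 0.0791) and with the replicate block (0.189), at -0.80 in the 5 libraries without Xist (0.163), at -0.75 without knockouts 2 and 4 (0.15), and at -1.02 to -0.84 with 1 library left out. Whether the replicate numbers pair the animals is not known. Same-numbered libraries correlated in their deviations from the group means at -0.432, -0.194, 0.349 and 0.194, and other pairs at -0.375 to 0.479. These values cannot decide it, since the libraries with Xist are knockouts 2 and 4 but control 1. Over the 20 alternatives the medians of the PPAR, ERR and NRF1 target lists lay between -0.23 and -0.06, -0.24 and -0.03, and -0.17 and -0.04. The mean filter left Ppargc1b, Pprc1, Esrrb, Esrrg and Nrf1 untested. No read depth is given, so the precision of low genes such as Ppargc1b and Esrrb is not known.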

Other observations

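Nnt, the mitochondrial transhydrogenase of which the C57BL/6J strain carries a partly deleted copy, varied most between libraries among the ERR target genes. It stood at 13.0, 36.4, 17.1 and 39.0 scaled FPKM in knockouts 1 to 4 and at 56.8, 6.18, 21.5 and 6.70 in controls 1 to 4, with a log2 difference of 0.60 (SE 0.67, limma adjusted p = 0.759). The 3 libraries with Xist were the highest, and among the other 5 libraries controls 2 and 4 were the lowest. The labels do not name the strain.

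Control 3, the library in which Ppargc1a was highest, also had the highest level of Pdk4, a kinase gene that restrains glucose oxidation. Pdk4 stood at 182, 126, 167 and 34.1 scaled FPKM in knockouts 1 to 4 and at 102, 172, 301 and 74.4 in controls 1 to 4 (log2 difference -0.39, SE 0.59, limma adjusted p = 0.828). Foxo1, a transcription factor gene of fasting, stood at 12.4, 19.3, 13.7 and 6.97 in knockouts 1 to 4 and at 6.42, 5.99, 14.6 and 4.85 in controls 1 to 4 (0.69, SE 0.35, adjusted p = 0.457). Control 3 was the highest of the controls for both genes. The labels do not state when the animals last fed.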
